A study of Homo sapiens with 63 samples.

Results

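COLO320DM, a human colorectal adenocarcinoma line, was kept with the solvent DMSO alone, and its messenger RNA at 48 h was compared with that at 24 h. The comparison rests on 6 libraries, 3 at each time, out of 63 in the series, and was read across 13782 genes. Both groups were COLO320DM cells in RPMI medium with 4% fetal bovine serum, given DMSO and no compound, and they differ in the labels by time alone. The other libraries of the series are DMSO at 6 h and cells given Helicon 4 or Helicon 4-neg at 1, 3 or 10 µM for 6, 24 or 48 h, with 3 libraries in each of 21 groups. By its title, the series concerns a Helicon peptide that targets β-catenin and TCF. The labels call the 3 libraries of a group biological replicates, and whether they came from separate cultures is not stated. The p-values, standard errors and intervals therefore measure only the spread between libraries within groups. That spread was estimated for each gene over all 63 libraries, not over the 6 DMSO libraries alone. The labels do not say whether medium was changed or how dense the cultures were, and time in culture cannot be told apart from anything else that differed between the harvests.

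Cultured cells left in one medium for days are known to divide, use up glucose, glutamine and serum factors, acidify the medium and crowd each other. Known responses of cultured cells include lower growth-factor signalling, transcription of amino acid synthesis and transport genes through ATF4, sterol synthesis through SREBP2 when cholesterol runs short, and autophagy and lysosome genes under the TFEB and FOXO factors. Translation genes are part of the same network, since the messengers of ribosomal proteins carry a pyrimidine-rich start that ties their translation and stability to the nutrient-sensing kinase mTOR.

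The cells carried the markers of their label in part. CDX2, a transcription factor of intestinal epithelium, stood at 3356, 3407 and 3493 at 24 h and 3791, 3840.1 and 3977 at 48 h, in scaled CPM (reads of a gene relative to all reads of its library, times a scaling factor of the authors), the unit of every level here. KRT8 and KRT18, the keratins of simple epithelia, stood at 144 to 161 and 62.8 to 69.4 at 24 h and at 206 to 225 and 94.7 to 112 at 48 h, while CDH17 stayed between 2.81 and 5.02. CDH1, the epithelial cadherin, had 0.0971, 1.03 and 1.38 at 24 h and 0 reads in all 3 libraries at 48 h, where 3 reads would be worth 0.155 to 0.187. The epithelial markers, 6 of 9 in the table, summed to 3569 to 3727 at 24 h and 4097 to 4319 at 48 h. CDX2 made up most of each sum. The 7 fibroblast markers summed to 9.36 to 57.4 and 9.77 to 47.0, and COL1A1 alone stood at 24.8 in the first 24 h library and 21.2 in the third 48 h library, against 1.99 to 3.61 in the other 4. Leukocyte markers, 2 of 9 in the table, summed to 13.1 to 15.6 and 9.76 to 11.6, and endothelial markers, 2 of 5, to no more than 1.23. Their part in the results was not tested.

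The 24 h libraries held 23538171 to 29361446 reads in the listed genes and the 48 h libraries 16628595 to 20538704, so the deeper group did not overlap the shallower. A single read was worth 0.0324 to 0.0411 at 24 h and 0.0516 to 0.0622 at 48 h. The scaled values summed to 950590 to 966694 at 24 h and 1034888 to 1059738 at 48 h, because of the authors' scaling factors, so the share of genes that read as higher depends on the scaling and is given below under each.

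In scaled CPM, transcripts of the ribosome and of the respiratory chain were higher at 48 h and many genes listed as long were lower. The deepest falls were those of CYP51A1, a cholesterol synthesis enzyme, KIF2A, a kinesin of the spindle, CSNK1A1, a kinase of β-catenin, and CNOT1, the scaffold of the main deadenylase of the cell (3.09-, 2.88-, 2.85- and 2.83-fold lower on the scale of value plus 1). HSPA8, TFRC and MYC fell too, by less. Most changes were small. In limma's test 7015 of 13782 genes (50.9%) passed an adjusted p of 0.05, 3101 higher at 48 h (22.5%) and 3914 lower (28.4%). The median log2 difference was 0.35 among those higher and -0.37 among those lower. Differences of at least 0.5 were seen for 677 genes higher and 1110 lower, and differences of at least 2-fold for 14 higher (0.102%) and 64 lower (0.464%). The 3 values at 48 h all lay above those at 24 h for 26.0% of genes and all below for 32.2%.

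The median log2 difference of all genes was -0.025 with the deposited scaling, 0.071 after centring each library on its median gene, and -0.12 in plain CPM without the authors' factors. The split of calls moved with it. It was 3101 higher and 3914 lower as deposited, 4297 and 2808 after median centring, and 1979 and 5338 in plain CPM. edgeR's quasi-likelihood test on the whole reads gave 3099 and 3918 with TMM factors, and 3329 and 3651 with relative log expression factors. Of 44 gene lists compiled for this tissue and setting, the median of 6 was above 0 under all 4 scalings tried (deposited, median centring, plain CPM, length trend removed), that of 9 below 0 under all, and that of 29 changed sign. Counting calls, 16 lists had more members higher than lower as deposited, 30 after median centring and 5 in plain CPM. Differences smaller than these shifts have no settled direction. The counts of a list are read against the 22.5% of all genes called higher and the 28.4% called lower, and a share near these says nothing particular of its members. A value marked length-corrected, median-centred or plain CPM is a gene's log2 difference with each library's trend of level on gene length removed, after median centring or in plain CPM, given where it moved by over 1.5 times or lost the call. Gene length is the length that the deposited table lists for each gene, which can differ from that of the messenger.

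**Figure D1:**
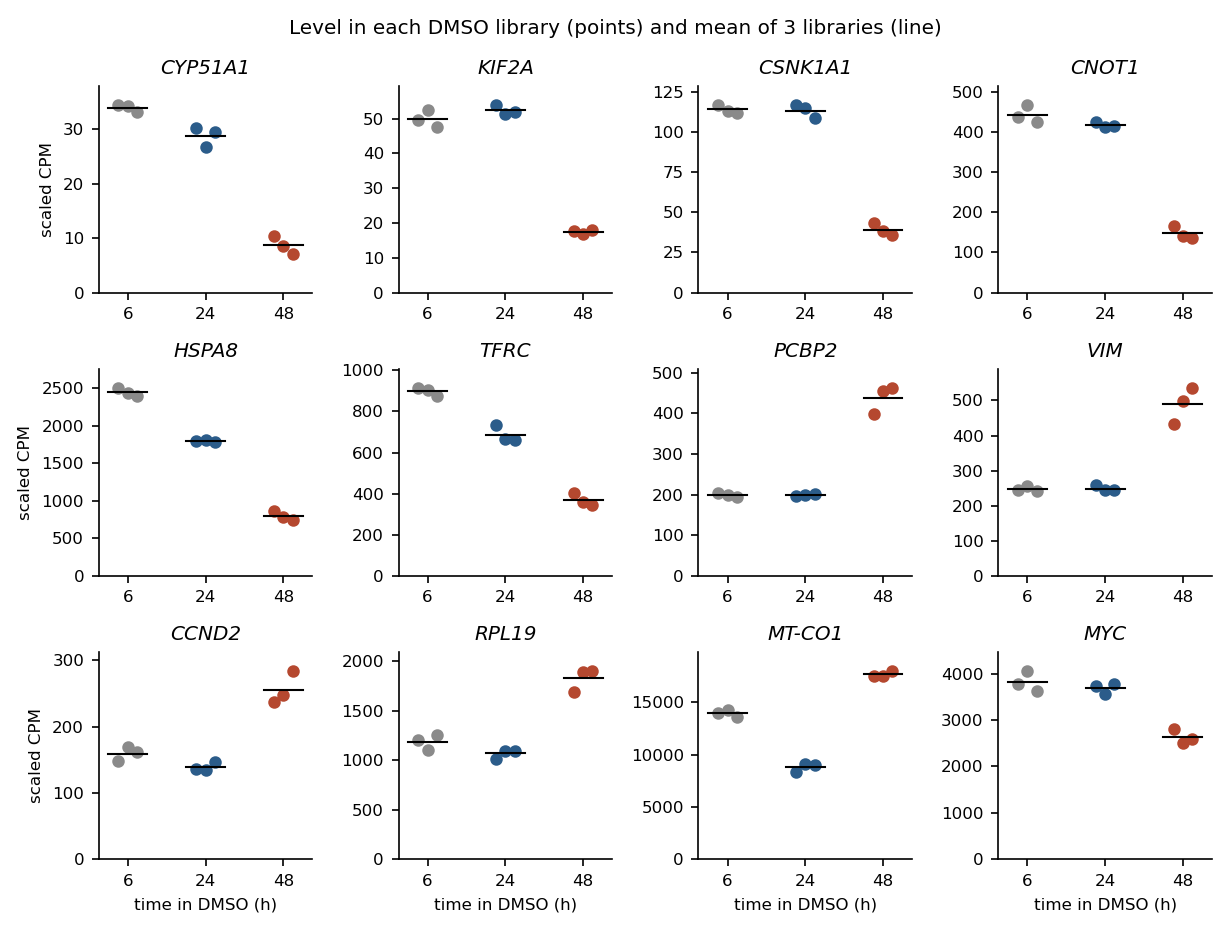
Level in scaled CPM (vertical axes, from 0) of 12 genes in each DMSO library at 6, 24 and 48 h, with points for libraries and a line for the mean of 3. In KIF2A, CSNK1A1 and CNOT1 the 48 h points lie far below both earlier times, in PCBP2 and VIM far above both, HSPA8 is lower at each later time, and MT-CO1 is lowest at 24 h.

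The deepest falls are given with their values by library. CYP51A1, which removes a methyl group from lanosterol on the way to cholesterol (ENSG00000001630, chromosome 7, 92112151 to 92134803 on GRCh38), had 30.1, 26.7 and 29.5 at 24 h and 10.5, 8.59 and 7.07 at 48 h. The log2 difference was -1.63 (SE 0.166, 95% interval -1.96 to -1.30, adjusted p = 8.7e-12). KIF2A, a kinesin that takes microtubules apart at their ends (ENSG00000068796, chromosome 5, 62306162 to 62537249), went from 54.00, 51.3 and 51.8 to 17.7, 16.9 and 18.01, a fall of 1.53 on the log2 scale (SE 0.104, 95% interval -1.74 to -1.32, adjusted p = 1.8e-16). The 48 h libraries were all low, and each time's libraries lay within a few units of each other. CSNK1A1, casein kinase 1 alpha, which places the first phosphate on β-catenin before its destruction (ENSG00000113712, chromosome 5, 149492197 to 149551552), had 116, 115 and 109 and then 43.1, 38.6 and 35.7 (log2 difference -1.51, SE 0.127, 95% interval -1.77 to -1.26, adjusted p = 4.4e-14). CNOT1, the scaffold of the CCR4-NOT complex that shortens poly(A) tails (ENSG00000125107, chromosome 16, 58519951 to 58629886), was the most abundant of these, with 426, 413 and 414 and 167, 139.9 and 135 (log2 difference -1.50, SE 0.103, 95% interval -1.71 to -1.30, adjusted p = 1.8e-16). NFATC3, a transcription factor that calcineurin activates (ENSG00000072736, chromosome 16, 68084751 to 68229259), had 53.97, 53.02 and 55.4 and 20.7, 17.1 and 18.01 (log2 difference -1.50, SE 0.0942, 95% interval -1.69 to -1.31, adjusted p = 2e-17). The 5 were taken among genes whose groups do not overlap, so that they do not is no result. With each library's trend of level on gene length removed the log2 differences were -1.61, -1.46, -1.35, -1.30 and -1.31 in the order given.

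A further 10 genes complete the 15 largest falls among well-expressed genes. TBC1D14, a regulator of autophagosome formation, fell by 1.48 and SEC24C, a cargo-binding coat protein of vesicles leaving the endoplasmic reticulum, by 1.34. RAB11FIP1, which works on recycling endosomes, fell by 1.35. The deubiquitinases USP34 and USP37 fell by 1.39 and 1.38, and SHPRH, a ubiquitin ligase of damaged replication forks, by 1.35. IGF2BP3, an RNA-binding protein of fetal tissue and tumours, had 36.1, 33.3 and 35.9 at 24 h and 16.4, 11.1 and 11.5 at 48 h (log2 difference -1.38). TXNDC5, a disulfide isomerase of the endoplasmic reticulum, fell by 1.41 but spread widely at 24 h, with 55.3, 48.3 and 87.9. CCDC85C fell by 1.39 and TSTD2 by 1.34. The adjusted p of these 10 ran from 1.8e-16 to 4.3e-07. With all libraries included, all 15 fell again between 24 and 48 h in each of the 6 compound conditions, as did 18.5% of all genes lower in DMSO. Between 6 and 24 h, a step in which 20.4% of all genes passed, 2 of the 15 had changed, TXNDC5 (log2 difference -0.76) and IGF2BP3 (0.36, in the other direction). Of the 15, 12 were longer than the median tested gene of 4935 bases.

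Among the 15 largest rises 8 were genes of mitochondrial DNA and are described with the respiratory chain below. The other 7 were nuclear. PCBP2, an RNA-binding protein that holds to cytosine-rich stretches (ENSG00000197111, chromosome 12, 53452102 to 53481162), had 197, 200.1 and 202 at 24 h and 397, 454 and 462 at 48 h (log2 difference 1.12, SE 0.0977, 95% interval 0.93 to 1.32, adjusted p = 1.1e-13). VIM, the intermediate filament vimentin (ENSG00000026025, chromosome 10, 17228259 to 17237593), had 258, 244 and 243 and 432, 499 and 535 (log2 difference 0.97, SE 0.0961, 95% interval 0.78 to 1.16, adjusted p = 4.1e-12). Between 6 and 24 h the log2 differences were 0.01 and 0.01 (adjusted p = 0.98 and 0.97). ZNF121, a zinc finger gene, had the largest of these rises at a low level, from 3.63, 4.68 and 4.73 to 12.4, 15.7 and 15.7 (log2 difference 1.54, SE 0.166, 95% interval 1.21 to 1.88, adjusted p = 3.7e-11). ZFHX3, a homeobox and zinc finger factor, rose by 1.32, PRRC2C by 1.23, and ANKRD12 by 1.14 after a rise of 1.15 between 6 and 24 h. These 3 are long, with 17503, 13921 and 12252 bases of exon, and their rises were larger with the length trend removed, at 1.53, 1.44 and 1.34. NPIPA3 rose by 0.97, but it belongs to a family of near-identical copies whose reads the counting could have split. In all 6 compound conditions, with all libraries included, 5 of the 7 rose, as did 8.93% of all genes higher in DMSO.

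Genes of the ribosome rose together. Of 40 ribosomal protein genes tested, 39 were called higher and 0 lower, with a median log2 difference of 0.59 (0.53 with the length trend removed, 0.68 after median centring and 0.46 in plain CPM), beside -0.025 over all genes. RPL19, a protein of the large subunit (ENSG00000108298, chromosome 17, 39200283 to 39204732), had 1015, 1091 and 1097 at 24 h and 1693, 1892 and 1899 at 48 h (log2 difference 0.77, SE 0.0627, 95% interval 0.65 to 0.90, adjusted p = 1.7e-14). RPL14, also of the large subunit (ENSG00000188846, chromosome 3, 40457292 to 40468587), rose by 0.78, from 1745, 1884 and 1842 to 2922, 3224 and 3269.5. RPLP1 and RPLP2, which form the stalk that recruits elongation factors, rose by 0.67 and 0.69 (length-corrected 0.44). In all 4 the lowest 48 h library lay above the highest 24 h library, as for 26.0% of all genes. The 4 were named for their small p, so that their groups do not overlap is no result. Between 6 and 24 h, a step that shares the 24 h libraries, 0 members were higher and 22 lower (median -0.18), where 9.88% of all genes were higher and 10.5% lower. Many of these genes have processed pseudogenes, with which reads can be shared. Their listed lengths had a median of 3668.5 bases, beside 4935 over all genes tested, and the length correction rests on these. RPL14 is listed at 8626 bases, and its difference was 0.96 with the length trend removed. Whether their rise depends on the length of the messengers was not tested.

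The starts of these genes carry the pyrimidine run that mTOR-regulated translation is known for, and 4 are shown with 4 of the deepest falls for comparison. Each line gives 30 bases before and 20 after the transcription start on the gene's strand, from RefSeq on GRCh38.p14, with an unbroken run of C and T over the first transcribed base in capitals. RPL19 and CSNK1A1 have 2 promoters each, and the one with the longest run is shown. In the shares of genes below, a gene counts if any of its promoters holds the run.
RPL19, chr17:39200293-39200342, + strand: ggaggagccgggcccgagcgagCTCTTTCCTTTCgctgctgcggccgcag
RPL14, chr3:40457309-40457358, + strand: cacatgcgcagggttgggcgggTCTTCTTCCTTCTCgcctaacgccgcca
RPLP1, chr15:69452788-69452837, + strand: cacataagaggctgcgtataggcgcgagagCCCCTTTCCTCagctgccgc
RPLP2, chr11:809937-809986, + strand: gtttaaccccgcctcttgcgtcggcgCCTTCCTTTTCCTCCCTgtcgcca
CYP51A1, chr7:92134458-92134507, - strand: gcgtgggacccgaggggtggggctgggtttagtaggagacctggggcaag
KIF2A, chr5:62306176-62306225, + strand: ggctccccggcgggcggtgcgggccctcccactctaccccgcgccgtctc
CSNK1A1, chr5:149551420-149551469, - strand: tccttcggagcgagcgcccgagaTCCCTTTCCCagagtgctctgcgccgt
NFATC3, chr16:68085340-68085389, + strand: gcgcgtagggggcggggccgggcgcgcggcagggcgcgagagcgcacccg
A run of at least 6 such bases over the start was present in 24 of the 30 listed ribosomal protein genes that matched a promoter (80.0%), in 10.2% of the 10977 matched genes tested and in 7.41% of all 35116 promoters in the table. CSNK1A1, among the deepest falls, has one as well. Over the 1099 genes with the run outside the ribosomal protein list the median log2 difference was 0.011, with 305 called higher and 288 lower, beside 2498 and 3247 (median -0.030) over all matched genes. The run was looked at after the rise of the list had been seen.

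Ribosome assembly and MYC-responsive genes were divided. Of 40 tested, 19 were higher and 9 lower (median 0.10; 0.07 with the length trend removed, 0.20 after median centring and -0.02 in plain CPM with 15 higher and 16 lower). NPM1, the nucleolar chaperone nucleophosmin, had 2644, 2732 and 2635 at 24 h and 3391, 3496 and 3599 at 48 h (log2 difference 0.39, adjusted p = 1.4e-09), and NME1 and PA2G4 rose by 0.64 and 0.52. DDX21, a nucleolar RNA helicase, fell by 0.75, from 309, 297 and 294 to 189, 169 and 176. MYC itself, the growth-promoting factor that COLO320DM carries in many copies, had 3729, 3563 and 3784 at 24 h and 2814, 2506 and 2592 at 48 h. Its groups did not overlap, where 32.2% of all genes lay wholly below. MYC fell by 0.49 (SE 0.0492, 95% interval -0.59 to -0.39, adjusted p = 6.6e-12) after a difference of -0.05 between 6 and 24 h that did not pass (adjusted p = 0.54). Enzymes that load amino acids onto tRNA were lower in 10 and higher in 4 of 20 (median -0.07; -0.09 with the length trend removed, 0.03 after median centring with 9 higher and 6 lower and -0.20 in plain CPM). IARS, the isoleucine enzyme, had 322, 308 and 314 and 201, 180.3 and 181, a fall of 0.75 (SE 0.0695, 95% interval -0.89 to -0.61, adjusted p = 7e-13). RARS, MARS and LARS, the enzymes for arginine, methionine and leucine, fell by 0.47, 0.44 (length-corrected -0.28) and 0.38 (length-corrected -0.20).

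All 13 protein-coding genes of mitochondrial DNA were higher, with a median log2 difference of 1.01 (0.54 with the length trend removed, 1.11 after median centring and 0.88 in plain CPM). They encode core subunits of the respiratory chain and ATP synthase. MT-CO1, a subunit of cytochrome c oxidase, had 8344, 9078 and 8978 at 24 h and 17545, 17575 and 17989 at 48 h (log2 difference 1.01, SE 0.172, 95% interval 0.66 to 1.36, adjusted p = 2e-06). MT-ND4 and MT-CYB, of complexes I and III, rose by 1.39 and 1.15 (length-corrected 0.76). MT-CO2 and MT-CO3, of the same enzyme as MT-CO1, rose by 0.82 (length-corrected 0.32) and 0.83 (length-corrected 0.36). MT-ND5 rose by 1.15, MT-ND1 by 1.06 (length-corrected 0.63) and MT-ND4L by 1.06 (length-corrected 0.46). MT-RNR2, the large mitochondrial ribosomal RNA, rose by 0.98. MT-ND6 rose by 1.43 (length-corrected 0.90), and since the strand setting of the counting is not given, its reads cannot be told apart from those of the other strand. The mitochondrial protein-coding and ribosomal transcripts made up 2.91 to 3.24% of all values at 24 h and 5.58 to 5.79% at 48 h. At 6 h they had made up 4.26 to 4.58%, and 10 of the 13 genes fell between 6 and 24 h (median -0.59, beside 10.5% of all genes lower in that step), so that the 24 h libraries were the lowest of the 3 times. With the length trend removed 11 of the 13 were still higher and 1, MT-ND3, was lower.

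**Figure D2:**
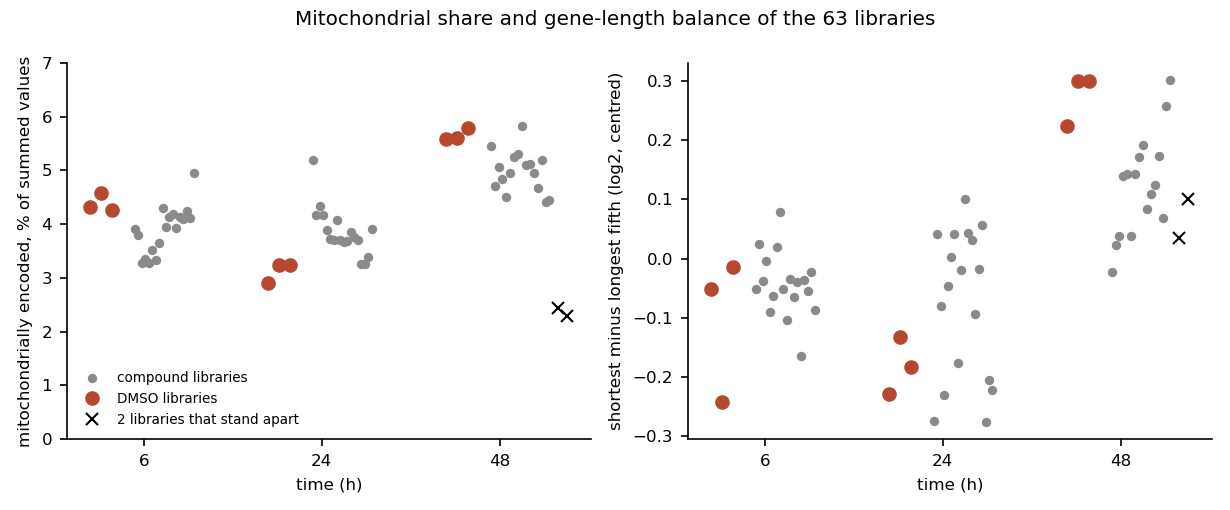
Share of all values that came from mitochondrial transcripts (left, percent, from 0) and median log2 level of the shortest quintile of genes minus the longest quintile (right, centred on the mean of the 63 libraries), for each library by time. The 3 DMSO libraries are lowest at 24 h for the mitochondrial share, at 2.91 to 3.24%, and at 5.58 to 5.79% at 48 h; crosses mark 2 compound libraries that stand apart.

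Nuclear genes of the respiratory chain were higher in 29 and lower in 6 of 40 (median 0.36; 0.20 with the length trend removed, 0.45 after median centring and 0.23 in plain CPM). NDUFA1, a small subunit of complex I, had 108, 122 and 122 at 24 h and 188, 208 and 203 at 48 h (log2 difference 0.76, adjusted p = 7.7e-13). COX5B rose by 0.74, UQCRQ by 0.75 and NDUFB10 by 0.68. These genes are short, and with the length trend removed the 4 rises were 0.29, 0.41, 0.42 and 0.28. Enzymes of the citric acid cycle and mitochondrial regulators were 7 higher and 12 lower of 23 (median -0.15; -0.11 with the length trend removed, -0.05 after median centring with 9 higher and 8 lower and -0.28 in plain CPM). IDH3A, of the step from isocitrate to 2-oxoglutarate, fell by 0.67, from 53.6, 49.4 and 48.9 to 33.9, 31.1 and 29.7, and DLD and DLST of the dehydrogenase complexes fell by 0.55 and 0.36. FH, fumarase, rose by 0.31 (length-corrected 0.10, plain CPM 0.18).

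Glycolytic genes were mixed, 4 higher and 8 lower of 21 (median -0.07; -0.01 with the length trend removed, 0.02 after median centring and -0.20 in plain CPM). PGAM1 had 1194, 1231 and 1191 at 24 h and 916, 862 and 844 at 48 h, a fall of 0.46 (adjusted p = 2.8e-11), and PGK1 and PGM1 fell by 0.32 and 0.37, while GAPDH rose by 0.24 (length-corrected 0.15, plain CPM 0.11). Hypoxia-inducible genes, which respond to low oxygen through HIF, were lower in 12 and higher in 2 of 35 (median -0.09; -0.01 with the length trend removed, 0.0033 after median centring and -0.22 in plain CPM). PFKFB3 fell by 0.71 and PDK1, a kinase that inhibits pyruvate dehydrogenase, by 0.50 (length-corrected -0.29), while FAM162A and HILPDA rose by 0.62 and 0.39 (length-corrected 0.17). CA9 was not analysed here. VEGFA, the angiogenic factor, fell by 0.16 (adjusted p = 0.0097, length-corrected 0.05, not called, median-centred -0.06, not called, plain CPM -0.29). TXNIP and ARRDC4, genes that glucose induces through MondoA, fell by 0.32 and 0.37. TXNIP had 62.3, 56.8 and 60.4 at 24 h and 48.2, 49.2 and 45.3 at 48 h, after a rise of 0.32 between 6 and 24 h.

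Genes of DNA replication and mitosis went both ways, and which direction was the more frequent depended on the scaling. Of 46 S phase genes, 18 were lower and 8 higher (median -0.09; -0.06 with the length trend removed, 0.0043 after median centring with 14 higher and 13 lower and -0.22 in plain CPM). MCM2, a subunit of the replicative helicase, had 585, 577 and 572 at 24 h and 437, 416 and 408 at 48 h, a fall of 0.46 (SE 0.0478, 95% interval -0.56 to -0.36, adjusted p = 1.4e-11). UNG, which removes uracil from DNA, and RPA1, which coats single strands, fell by 0.51 and 0.36, while GINS2 rose by 0.35 (plain CPM 0.22). Of 45 mitotic genes, 21 were lower and 13 higher (median -0.10; -0.09 with the length trend removed, -3.2e-05 after median centring with 16 higher and 13 lower and -0.22 in plain CPM). ECT2, which drives the closing furrow of dividing cells (ENSG00000114346, chromosome 3, 172750682 to 172821474), had 165, 155 and 154 and 79.4, 68.8 and 70.5, a fall of 1.11 (SE 0.0862, 95% interval -1.28 to -0.94, adjusted p = 5.4e-15). CCNA2, cyclin A2, fell by 0.72, from 178, 189 and 175 to 119, 106 and 103, and the kinase gene PLK1 by 0.58, while PTTG1, securin, rose by 0.56 (length-corrected 0.33). Between 6 and 24 h, with the same 24 h libraries, 34 mitotic genes were higher and 0 lower (median 0.27), beside 9.88% and 10.5% of all genes. In bulk RNA fewer cells in a phase and less RNA per cell cannot be told apart. MKI67, the proliferation marker, had 10.7, 10.2 and 10.1 and 9.02, 11.7 and 9.75, groups that overlap (log2 difference -0.03, 95% interval -0.40 to 0.34, adjusted p = 0.91).

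Regulators of the G1 phase moved one by one. CCND2, cyclin D2, rose by 0.87 (SE 0.0996, 95% interval 0.67 to 1.07, adjusted p = 1.7e-10), from 136, 134 and 146 to 236, 247 and 284, and its partner kinase CDK6 fell by 0.58 (length-corrected -0.38), from 50.7, 48.7 and 53.4 to 34.8, 34.01 and 32.2. RBL2, the pocket protein p130 of resting cells, fell by 0.69. CDKN2A rose by 0.53 and CDKN1C, at a low level, by 0.77. CDKN1B, p27, rose by 0.11 (adjusted p = 0.0094, length-corrected 0.0017, not called, median-centred 0.21, plain CPM -0.02, not called). CDKN1A, p21, had 2.23, 1.81 and 2.42 and 1.74, 1.64 and 2.79 and did not pass (-0.06, 95% interval -0.32 to 0.20, adjusted p = 0.74). Over the list of CDK inhibitors and G1 regulators 5 were higher and 5 lower of 17 (median -0.05; -0.004 with the length trend removed with 4 higher and 5 lower, 0.05 after median centring with 6 higher and 4 lower and -0.15 in plain CPM with 3 higher and 6 lower). Over FOXO and quiescence genes 7 were higher and 10 lower of 31 (median -0.12; -0.03 with the length trend removed with 7 higher and 6 lower, -0.02 after median centring with 10 higher and 6 lower and -0.23 in plain CPM), with YPEL3 and BTG1 rising by 0.83 and 0.50. CCNG2, a cyclin of resting cells in the FOXO programme, fell by 0.27 (length-corrected -0.11, not called, median-centred -0.18) after a rise of 0.87 between 6 and 24 h. Of p53 targets 4 were higher and 7 lower of 23 (median -0.09; -0.07 with the length trend removed, 0.01 after median centring with 5 higher and 4 lower and -0.16 in plain CPM), with XPC of DNA repair and RRM2B of nucleotide supply falling by 0.72 and 0.63. Of apoptosis regulators 6 were higher and 5 lower of 23 (median -0.03; -0.03 with the length trend removed, 0.06 after median centring and -0.16 in plain CPM with 5 higher and 10 lower), among them BCL2L11, which fell by 0.60, and BAX and BID, which rose by 0.32 (length-corrected 0.18, plain CPM 0.19) and 0.41.

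Mitotic promoters are known for the cell cycle gene homology region (CHR, letters TTTGAA), through which the DREAM complex silences them in resting cells. It was found on either strand in 28 of 39 matched mitotic genes, 16 of the 19 lower, 6 of the 12 higher and 6 of the 8 not called, and in 14.1% of all matched genes tested (15.2% of all promoters). Shown is the match nearest the start that has 17 bases on either side within the stretch searched, with the CHR in capitals. Of the 4 named mitotic genes, 2 hold such a match.
ECT2, chr3:172750594-172750633, + strand: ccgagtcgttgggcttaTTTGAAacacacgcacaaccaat
PLK1, chr16:23678843-23678882, + strand: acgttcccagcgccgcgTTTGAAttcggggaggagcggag
In the counts, no match says only that these letters are not in the 300 bases searched. Motifs of the other lists were found as follows. The ATF4 motif (TGATGNAA) was in 9 of 31 matched ATF4 genes (6 of 13 higher, 2 of 7 lower, 1 of 11 not called) and in 2.78% of genes tested (3.62% of all promoters). The hypoxia motif (ACGTGC) was in 13 of 29 hypoxia-inducible genes (1 of 1 higher, 3 of 10 lower, 9 of 18 not called) and in 11.3% of genes tested (6.89% of all promoters). The E2F motif (TTTCGCGC) was in 6 of 40 S phase genes (0 of 7 higher, 3 of 16 lower, 3 of 17 not called) and in 1.17% of genes tested (0.515% of all promoters). The SREBP motif (TCACNCCAC) and the CLEAR and SRF motifs were in 1 gene of their lists each, of 20, 21 and 24, and the carbohydrate element in 0 of 9.

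Genes that answer amino acid shortage through ATF4 were higher in 15 and lower in 10 of 40 (median 0.04; 0.07 with the length trend removed, 0.13 after median centring and -0.08 in plain CPM with 10 higher and 14 lower). ATF4 itself had 410.0, 419 and 402 at 24 h and 542, 548 and 558 at 48 h, a rise of 0.42 (SE 0.0311, 95% interval 0.36 to 0.48, adjusted p = 1.5e-15, length-corrected 0.27). Its targets ASNS, which makes asparagine, and CHAC1, which breaks down glutathione, rose by 0.29 (plain CPM 0.16) and 0.54 (length-corrected 0.32). ASNS had fallen by 0.78 between 6 and 24 h, and over that interval 19 of the list fell and 2 rose, beside 10.5% and 9.88% of all genes. CEBPB and ATF3, transcription factors of the same response, rose by 0.63 (length-corrected 0.39) and 0.47. SLC1A5, a glutamine carrier, rose by 0.39, and XPOT, the tRNA exporter, fell by 0.42 (length-corrected -0.26). Carriers of amino acids were lower in 11 and higher in 5 of 24 (median -0.15; -0.06 with the length trend removed with 8 higher and 8 lower, -0.06 after median centring and -0.24 in plain CPM). SLC7A6 had 30.7, 26.6 and 28.01 and 12.8, 12.4 and 10.2, a fall of 1.20 (SE 0.0984, 95% interval -1.40 to -1.01, adjusted p = 2.2e-14), and SLC7A2, a carrier of arginine and lysine, and SLC36A1 of lysosomes fell by 0.97 and 0.82. In serine, folate and nucleotide synthesis 13 were lower and 5 higher of 28 (median -0.09; -0.05 with the length trend removed, 0.01 after median centring with 9 higher and 6 lower and -0.20 in plain CPM). CTPS1 and GART, enzymes of cytidine and purine synthesis, fell by 0.51 and 0.48 (length-corrected -0.32), PPAT, the entry to purine synthesis, by 0.35, and PHGDH, the first enzyme of serine synthesis, rose by 0.23 (plain CPM 0.10).

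Chaperones were divided. HSPA8, the constant cytosolic HSP70 (ENSG00000109971, chromosome 11, 123057489 to 123063230), had 2501, 2438 and 2389.6 at 6 h, 1793, 1806 and 1788 at 24 h and 857, 785 and 739 at 48 h. No library of a later time reached one of an earlier time, and the last step was -1.18 (SE 0.0854, 95% interval -1.35 to -1.01, adjusted p = 9e-16). HSPA8 was named for its small p in that step, in which 32.2% of all genes lay wholly below. HSPH1 fell by 0.47 (length-corrected -0.29), and AHSA1 and HSPE1 rose by 0.41 and 0.49 (length-corrected 0.25), so that the heat shock list held 6 higher and 7 lower of 20 (median -0.04; -0.07 with the length trend removed, 0.05 after median centring with 7 higher and 5 lower and -0.16 in plain CPM). In the unfolded protein response 10 were higher and 6 lower of 23 (median 0.07; 0.08 with the length trend removed, 0.17 after median centring and -0.05 in plain CPM with 7 higher and 9 lower). SEC61B, of the translocation channel, rose by 0.66 (length-corrected 0.27), DNAJB11, a co-chaperone of BiP, by 0.37 (plain CPM 0.24), and the chaperones HYOU1 and PDIA6 fell by 0.63 and 0.57. Redox genes under NRF2 held 8 higher and 5 lower of 23 (median 0.01; 0.0029 with the length trend removed with 4 higher and 6 lower, 0.10 after median centring and -0.12 in plain CPM with 4 higher and 9 lower). SRXN1, which repairs peroxiredoxins, had 26.5, 27.4 and 24.2 and 13.2, 10.8 and 9.18, a fall of 1.17 (SE 0.116, 95% interval -1.41 to -0.94, adjusted p = 3.6e-12), and TXNRD1 fell by 0.53 while its substrate TXN rose by 0.62 (length-corrected 0.23). TKT, transketolase of the pentose phosphate pathway, rose by 0.36 (length-corrected 0.55, plain CPM 0.23). TFRC, the transferrin receptor, had 733, 665 and 661 and 401, 358 and 343, a fall of 0.90 (SE 0.0882, 95% interval -1.08 to -0.72, adjusted p = 2.8e-12). FTL, the ferritin light chain that stores iron, rose by 0.49 (length-corrected 0.04, not called), and IREB2, the regulator of both, fell by 0.58 (length-corrected -0.38), in an iron list with 2 higher and 5 lower of 11 (median -0.02; -0.02 with the length trend removed, 0.08 after median centring with 4 higher and 4 lower and -0.08 in plain CPM).

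Cholesterol synthesis genes were divided, with 10 higher and 10 lower of 27 (median -0.01; -0.05 with the length trend removed with 9 higher and 11 lower, 0.09 after median centring with 13 higher and 9 lower and -0.14 in plain CPM with 4 higher and 13 lower). Beside CYP51A1, LSS and HMGCS1 fell by 0.60 and 0.47. EBP, a later step, had 206, 208 and 207 at 24 h and 300.3, 309.8 and 299 at 48 h, a rise of 0.55 (adjusted p = 5.3e-12). Fatty acid genes were lower in 9 and higher in 4 of 17 (median -0.14; -0.04 with the length trend removed with 6 higher and 6 lower, -0.04 after median centring and -0.25 in plain CPM), with ELOVL5, ACSL1, GPAM and ACACA falling by 0.50, 0.53, 0.62 and 0.48 (length-corrected -0.27). Autophagy genes were lower in 13 and higher in 3 of 26 (median -0.14; -0.03 with the length trend removed with 4 higher and 6 lower, -0.05 after median centring with 6 higher and 7 lower and -0.26 in plain CPM). BECN1, of the complex that starts the autophagosome membrane, had 51.9, 53.8 and 48.7 and 31.4, 23.9 and 28.4, a fall of 0.87 (SE 0.0707, 95% interval -1.01 to -0.73, adjusted p = 2.1e-14), and ATG13 and GABARAPL1 fell by 0.47 and 0.40. MAP1LC3B, whose product marks autophagosomes, rose by 0.32 (plain CPM 0.19). Lysosome genes were lower in 13 and higher in 9 of 35 (median -0.05; -0.06 with the length trend removed, 0.04 after median centring with 10 higher and 10 lower and -0.18 in plain CPM), with the proton pump subunits ATP6V1B2 and ATP6V0D1 falling by 0.69 and 0.50 (length-corrected -0.33) and HEXA rising by 0.41 (length-corrected 0.61).

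**Figure D3:**
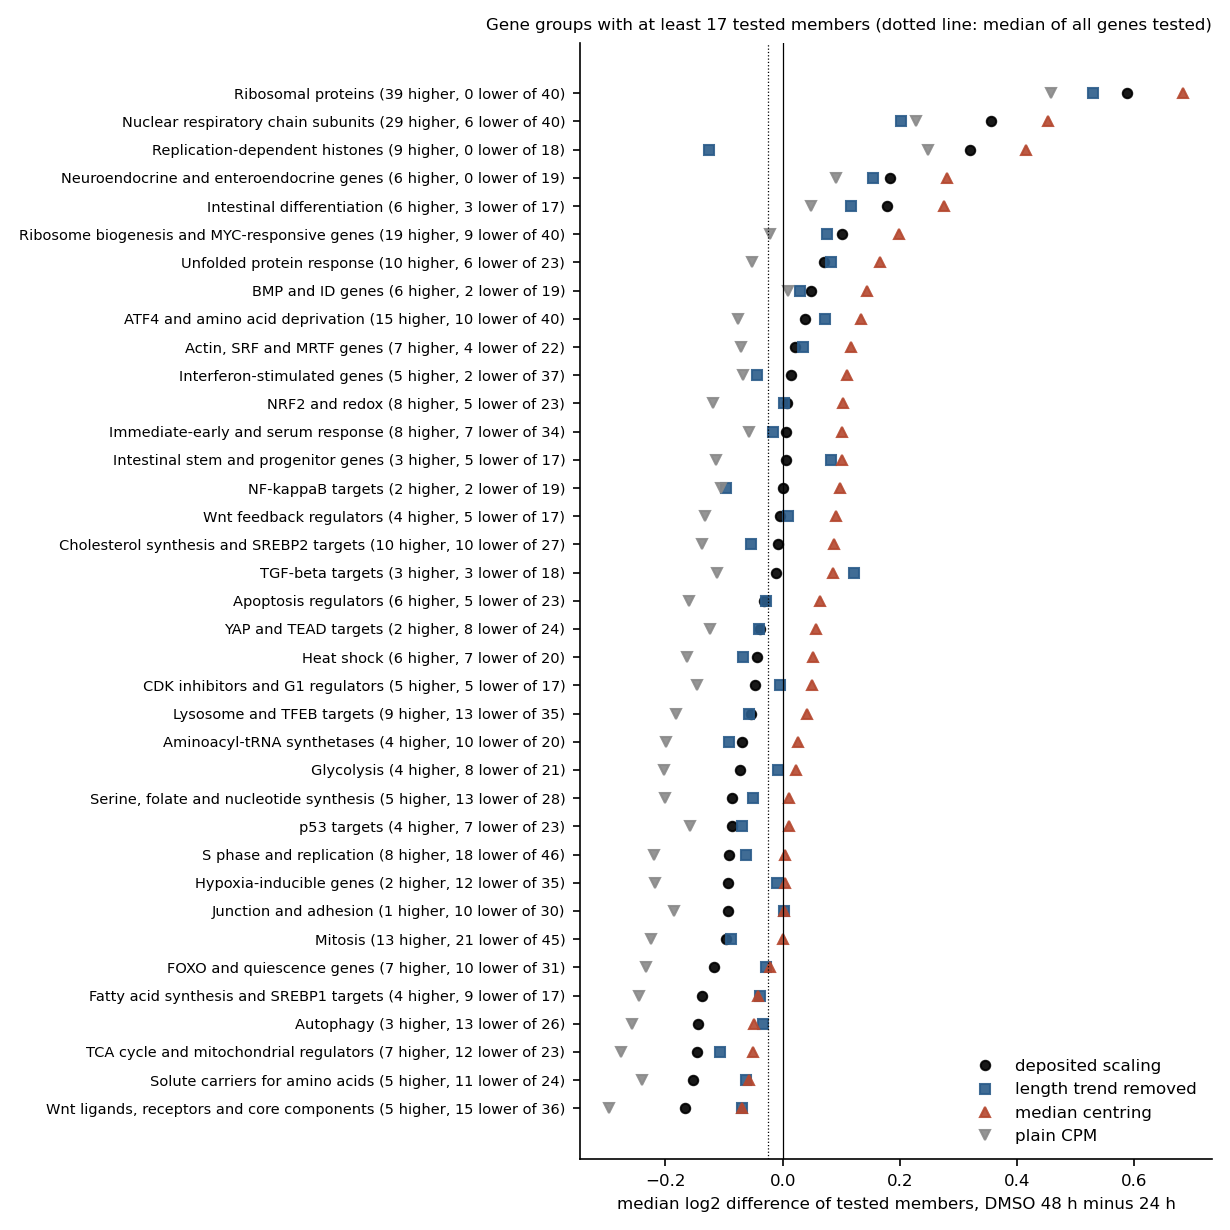
Median log2 difference (horizontal axis, DMSO 48 h minus 24 h) of the tested members of each gene list with at least 17 of them, under the deposited scaling and 3 alternatives, with the count called in each direction beside the name. Of the lists shown, ribosomal proteins (0.59) are highest under all 4, replication-dependent histones move from 0.32 to -0.13 when the length trend is removed, and most lists lie near the median of all genes (dotted, -0.025).

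Wnt signalling is constantly on in this line, whose APC is mutated. Of the ligands, receptors and core components 15 were lower and 5 higher of 36 (median -0.17; -0.07 with the length trend removed, -0.07 after median centring and -0.30 in plain CPM). Apart from CSNK1A1, the co-receptor LRP6 fell by 0.59 (length-corrected -0.39) and CTNNB1, the gene of β-catenin, by 0.33 (SE 0.0411, 95% interval -0.41 to -0.25, adjusted p = 1.6e-09, length-corrected -0.19), from 420.2, 432 and 429.7 to 363, 334 and 323, while the receptor FZD2 rose by 0.50 (length-corrected 0.29). Feedback regulators that β-catenin switches on held 4 higher and 5 lower of 17 (median -0.01; 0.01 with the length trend removed, 0.09 after median centring with 5 higher and 4 lower and -0.13 in plain CPM). Log2 differences within this list, called or not, ran from -1.39 to 0.47. AXIN2, the scaffold that limits the pathway, had 203, 197 and 206 and 169, 147 and 158, a fall of 0.36, and RNF43 and TNFRSF19 fell by 0.40 (length-corrected -0.23) and 0.36. NOTUM, which inactivates Wnt ligands, rose by 0.47, from 65.5, 60.9 and 65.9 to 83.6, 92.4 and 91.4. Among stem cell genes ASCL2 rose by 0.79 (SE 0.0943, 95% interval 0.60 to 0.98, adjusted p = 6.5e-10), from 24.9, 28.7 and 28.3 to 45.4, 49.4 and 48.3, and EPHB4 fell by 0.62, with 3 higher and 5 lower of 17 (median 0.01; 0.08 with the length trend removed with 5 higher and 3 lower, 0.10 after median centring with 8 higher and 2 lower and -0.11 in plain CPM). LGR5, the stem cell receptor, had 6.93, 4.39 and 5.19 and 5.48, 5.25 and 4.49 and did not pass (-0.08, 95% interval -0.32 to 0.16, adjusted p = 0.6).

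Neighbour-sensing and shape genes changed in part. TEAD1, the DNA-binding partner of YAP (ENSG00000187079, chromosome 11, 12674591 to 12944483), had 87.8, 84.2 and 86.1 at 24 h and 38.2, 33.3 and 37.05 at 48 h, a fall of 1.23 (SE 0.0936, 95% interval -1.42 to -1.04, adjusted p = 2.9e-15), and AJUBA fell by 0.55. AMOTL1 and AMOTL2, which bind YAP, fell by 0.88 and 0.57. The YAP and TEAD list held 2 higher and 8 lower of 24 (median -0.04; -0.04 with the length trend removed, 0.06 after median centring and -0.12 in plain CPM). Junction genes were lower in 10 and higher in 1 of 30 (median -0.09; 0.0028 with the length trend removed, 0.0019 after median centring and -0.19 in plain CPM), and ITGA6, a laminin receptor, fell by 0.79. PKP2 and DSG2 of desmosomes fell by 0.37 (length-corrected -0.21) and 0.32 (length-corrected -0.19), and CTNND1, p120 catenin, by 0.35 (length-corrected -0.17). ACTB, TPM2 and TMSB10 of the actin cytoskeleton rose by 0.56, 0.61 and 0.72 (length-corrected 0.18), and VCL fell by 0.52 (length-corrected -0.32). The actin list held 7 higher and 4 lower of 22 (median 0.02; 0.04 with the length trend removed, 0.12 after median centring and -0.07 in plain CPM with 6 higher and 8 lower). The keratins KRT8 and KRT18 rose by 0.46 and 0.67, within an intestinal differentiation list of 6 higher and 3 lower of 17 (median 0.18; 0.12 with the length trend removed with 4 higher and 5 lower, 0.27 after median centring and 0.05 in plain CPM with 3 higher and 3 lower). COLO320DM is known for endocrine traits, and its neuroendocrine genes were higher in 6 and lower in 0 of 19 (median 0.18; 0.15 with the length trend removed, 0.28 after median centring and 0.09 in plain CPM with 1 higher and 1 lower), PCSK1N by 0.50 (length-corrected 0.15, not called) and SNAP25 by 0.21 (plain CPM 0.08, not called). With the length trend removed 4 were higher and 1 lower.

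Other signalling lists follow. Immediate-early genes held 8 higher and 7 lower of 34, among them JUND, which rose by 0.87 from 46.1, 45.2 and 53.9 to 79.97, 87.3 and 100.3. BMP and ID genes held 6 and 2 of 19, with the homeobox gene MSX1 rising by 0.70 and ID2 by 0.39 (length-corrected 0.19, not called), and 2 and 0 with the length trend removed. Notch genes held 2 and 4 of 16, with NOTCH2 falling by 0.81, from 88.2, 70.02 and 84.4 to 46.99, 44.03 and 45.4, and the Notch target HES1 rising by 0.57 (length-corrected 0.35, not called) and the ligand DLL3 by 0.64. Interferon-stimulated genes held 5 and 2 of 37, with IFITM1 and IFITM3 rising by 0.45 (length-corrected 0.05, not called) and 0.38 (length-corrected 0.02, not called, plain CPM 0.25). Clock genes held 1 and 5 of 16 (median -0.16; -0.09 with the length trend removed, -0.06 after median centring and -0.31 in plain CPM), and CRY1, a repressor of the clock, fell by 0.87, from 64.01, 64.3 and 63.7 to 37.9, 31.8 and 34.4. NR1D2, another repressor of the clock, fell by 0.66 and DBP, one of its outputs, rose by 0.36 (plain CPM 0.23). The median of the clock list lay below 0 under all 4 scalings. Immediate-early genes had a median of 0.01 (-0.02 with the length trend removed with 4 higher and 5 lower, 0.10 after median centring and -0.06 in plain CPM with 4 higher and 9 lower) and BMP and ID genes of 0.05 (0.03 with the length trend removed, 0.14 after median centring and 0.01 in plain CPM). That of Notch genes was -0.05 (-0.08 with the length trend removed, 0.05 after median centring with 3 higher and 3 lower and -0.15 in plain CPM) and that of interferon-stimulated genes 0.01 (-0.04 with the length trend removed, 0.11 after median centring and -0.07 in plain CPM with 2 higher and 2 lower). Of replication-dependent histones 9 were higher and 0 lower of 18 (median 0.32), but these are among the shortest genes, and with the length trend removed the median was -0.13 and the counts were 2 and 3. Their messengers end in a stem-loop in place of a poly(A) tail, so poly(A) selection sees little of them, and some, such as HIST2H2AA4, have near-identical copies.

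Gene length went with the direction of change. Among 9167 genes with a mean log2 level of at least 3, the shortest quintile (153 to 3016 bases of exon) held 61.1% called higher and 10.9% called lower, with a median log2 difference of 0.25. The longest quintile (8292 to 43102 bases) held 12.3% and 53.2%, with a median of -0.21. The quintiles between lay in order, with medians of 0.021, -0.11 and -0.18. Spearman's rank correlation of length and log2 difference was -0.44 across these genes, which share libraries and are not independent replicates, and that of GC content was 0.25. Genes called higher had a median length of 3324 bases and those called lower 6320 bases. The median log2 level of the shortest quintile minus that of the longest, centred on the mean of all libraries, was -0.23, -0.13 and -0.18 in the 24 h libraries and 0.22, 0.30 and 0.30 in the 48 h libraries, so the groups did not overlap. In compound libraries of 48 h it ran from -0.023 to 0.30. Compound libraries of 24 h lay between -0.28 and 0.10, and some groups spread widely. The 3 libraries of Helicon 4 at 10 µM and 24 h had -0.27, 0.041 and -0.079. Those of Helicon 4-neg at 1 µM and 24 h lay close together, at -0.28, -0.21 and -0.22. This balance therefore also differed between libraries of one group. In DMSO, depth, mitochondrial share and this balance all separated the 24 h from the 48 h libraries, and their part in the gene results was not tested. With each library's trend on length removed, 3255 genes were higher and 3396 lower.

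**Figure D4:**
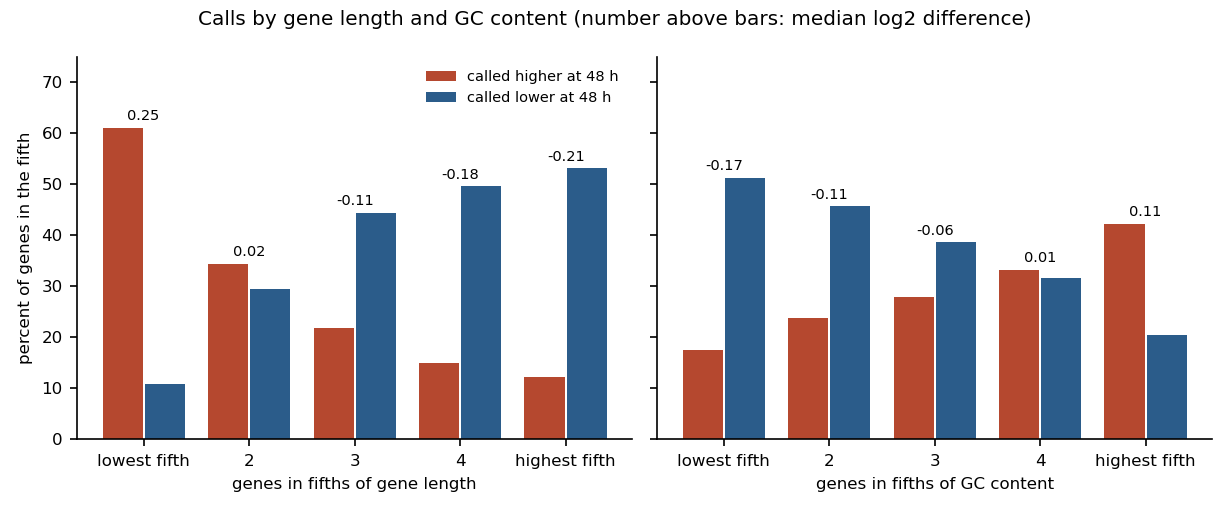
Percent of genes called higher and lower at 48 h (vertical axis, from 0) in quintiles of gene length (left) and of GC content (right), with the median log2 difference of each quintile above its bars. The shortest quintile holds 61.1% higher and the longest 53.2% lower.

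The step from 6 to 24 h uses the same 24 h libraries, so its values are set beside those of the later step without a comparison. In that step 2813 genes passed (20.4%), 1362 higher and 1451 lower. Median log2 differences of the early and the late step were -0.18 and 0.59 for ribosomal proteins, -0.59 and 1.01 for mitochondrial genes, 0.27 and -0.10 for mitosis, -0.17 and 0.04 for ATF4 genes, and -0.16 and -0.15 for amino acid carriers. Since the 24 h libraries stand in both, a high or low 24 h value lowers one difference and raises the other.

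Libraries of cells given a compound enter neither mean of the DMSO comparison, though they share its filter and its estimate of the spread. Of these, 2 libraries stand apart from their groups, Helicon 4-neg 1 µM 48 h replicate 1 and Helicon 4-neg 3 µM 48 h replicate 3, with mitochondrial shares of 2.30% and 2.44% where the other libraries of their groups had 4.41 to 5.20%, and the shares and differences that use either are given next with and without both. With Helicon 4-neg at 1 µM, 2037 of the 3101 genes higher in DMSO were also called higher (65.7%, beside 20.6% of all genes tested) and 2544 of the 3914 lower were also lower (65.0%, beside 25.4%). Without both libraries these were 71.1% and 70.6%. With Helicon 4-neg at 3 µM the shares were 28.3% (background 8.71%) and 40.9% (12.9%), or 38.9% and 52.0% without both libraries. With Helicon 4-neg at 10 µM they were 29.9% (10.5%) and 48.4% (16.2%). With Helicon 4 they were 54.3% (20.2%) and 68.6% (26.0%) at 1 µM, 51.7% (22.1%) and 48.2% (21.5%) at 3 µM, and 37.5% (17.1%) and 41.2% (18.3%) at 10 µM. With all libraries, in every condition both shares were above the background of that condition. Genes higher in DMSO and in all 6 compound conditions numbered 277, and genes lower in all numbered 725, or 374 and 905 without both libraries. Calls in the direction opposite to DMSO numbered 234 with Helicon 4 at 10 µM for genes higher in DMSO and 197 with Helicon 4 at 3 µM for those lower.

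**Figure D5:**
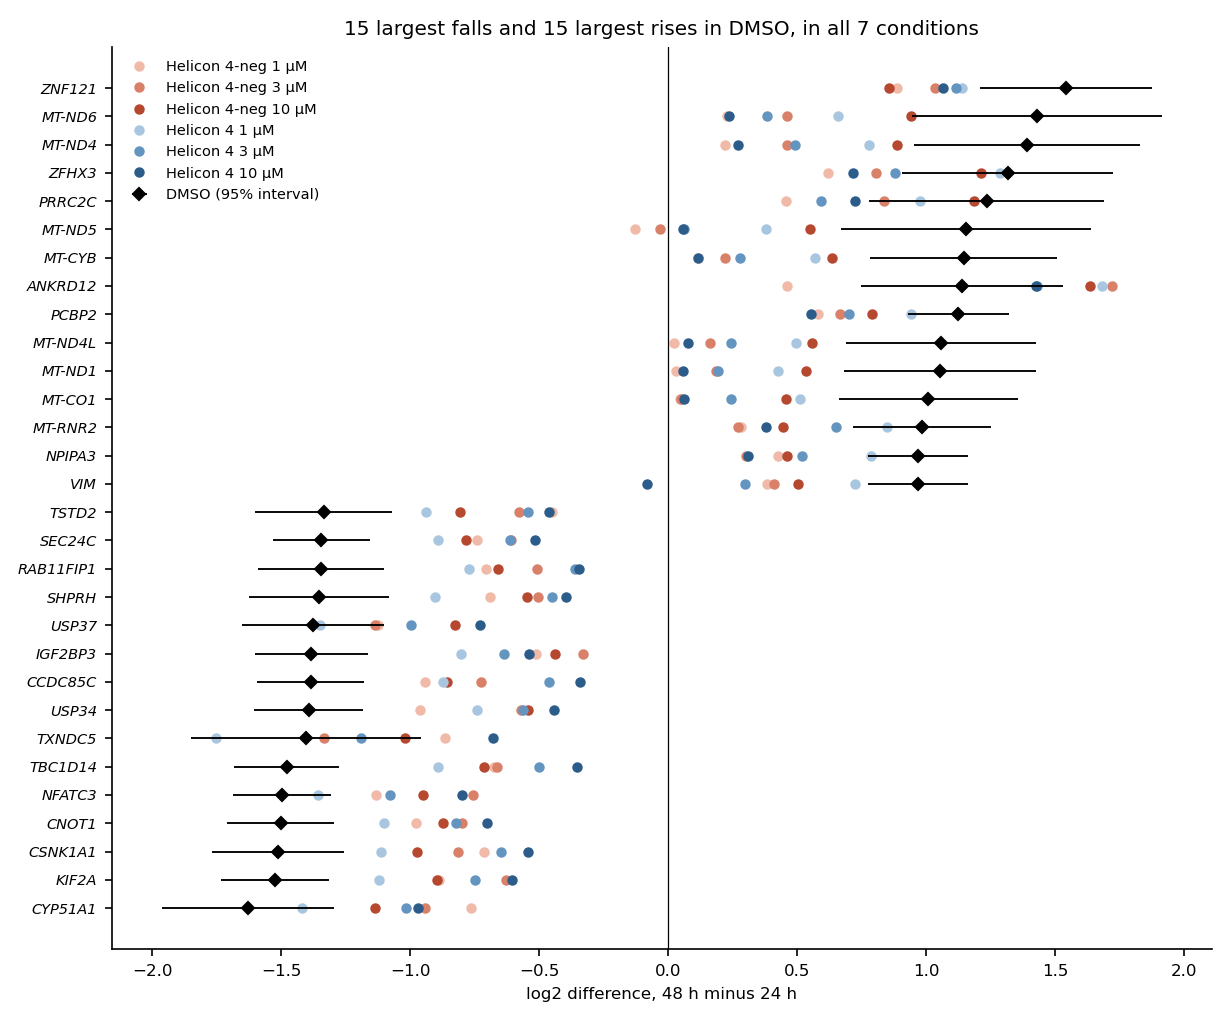
Log2 difference between 48 and 24 h (horizontal axis) of the 15 largest falls and 15 largest rises in DMSO, with DMSO as diamonds and 95% intervals and the 6 compound conditions as points. All points of the 15 falls lie below 0, and the genes were chosen for the size of their change in DMSO.

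Whether the change with time differed from DMSO was tested for Helicon 4-neg at 1 µM, the lowest dose of the companion compound. The difference of the 2 changes passed for 1565 of 13782 genes (11.4%), 1036 higher (7.52%) and 529 lower (3.84%). It was 797 genes without the libraries that stand apart, 472 without Helicon 4-neg 1 µM 48 h replicate 1 alone (with the same estimates as without both, since the other library is in neither mean), 925 without DMSO 48 h replicate 3 and 923 without Helicon 4-neg 1 µM 24 h replicate 3. HSPA8 fell less with the compound, by 0.75 on the log2 scale (adjusted p = 0.00018, 0.57 with adjusted p = 7.4e-07 without both libraries and 0.0035 without replicate 1 alone). For the 13 mitochondrial genes the calls depended on which of the 2 libraries that stand apart were left out. With all libraries 0 of 13 were called with the compound (median 48 h minus 24 h 0.05), and without both that stand apart 11 were called higher (median 0.42). The difference from DMSO passed for 13 of 13 with all libraries (median -0.96) and for 12 without both (median -0.58). Without replicate 1 alone it passed for 0 at the same median of -0.58, because the estimate of the spread differed. ATF4 rose less by 0.21 (adjusted p = 0.0016), or -0.18 as compound minus DMSO (adjusted p = 0.0094) without both libraries and adjusted p = 0.019 without replicate 1 alone. The ribosomal proteins differed for 1 gene of 40, and their 48 h minus 24 h median was 0.51 with the compound, 0.59 without both libraries, and 0.59 with DMSO. A gene picked for a large change in DMSO is favoured to show a smaller one elsewhere, so the named rises and falls support nothing here. The same holds for HSPA8 and ATF4, which were named for their small p in DMSO.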

How the data were processed

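RNA of COLO320DM was extracted and sequenced as a stranded poly(A)-enriched library, per the labels' protocols. The authors' steps, per the submitters' processing notes, used Trimmomatic 0.39, STAR 2.7.7a, featureCounts (Subread 2.4.2) and edgeR 4.0.2 on GRCh38; the annotation, the strand setting and any filter are not given in the sources used here. The deposited table holds a normalized signal for 13962 genes in 63 libraries, CPM scaled by a factor per library, from which whole reads were recovered for 100% of values (within 0.01).

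The 13782 genes that reached 0.5 in 3 or more libraries were tested with limma 3.58.1 in R 4.3.3 on log2(value + 1), with 21 groups in 1 fit (42 residual degrees of freedom, two-sided, Benjamini-Hochberg adjusted p under 0.05). Fold changes on this scale understate those of low genes. edgeR 4.0.16 on the recovered reads, other scalings, filters and pseudocounts, removal of each library's lowess trend on gene length, and libraries left out were alternatives. The test and edgeR were run on simulated data in which few genes changed and no trend on gene length was set. That setting differs from these data, so it does not test the calls made here. No pair of libraries of one group was identical, and in the 15 pairs checked the chi-square per gene was 2.14 to 27.0.

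Named genes were the 15 largest rises and 15 largest falls among called genes with a mean log2 level of at least 3 and groups that did not overlap, the 4 list members with the smallest p in each list, and 17 genes taken whatever their values. These give 206 genes, of which most are printed. MT-ND3 and the markers are named beside them, and some genes of the rule are not reported here. The lists, their members and the comparison itself were chosen with earlier results of these data known. Gene positions follow GENCODE 29 on GRCh38; 10977 of the genes tested matched a RefSeq promoter by symbol. Intervals cover 95%.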

Additional observations from a re-analysis of the deposited data

Results flagged for a closer look

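For 23 of the 30 largest rises and falls the change between 24 and 48 h with Helicon 4-neg at 1 µM differed from that with DMSO in limma's test of the difference (adjusted p under 0.05 over 13782 genes), and each of the 23 changed less with the compound. The values are the log2 change with the compound minus that with DMSO, followed in parentheses by the value without Helicon 4-neg 1 µM 48 h replicate 1 and Helicon 4-neg 3 µM 48 h replicate 3, which stand apart from their groups. Among mitochondrial transcripts, which rose in DMSO, it was -1.28 (-0.86) for MT-ND5, -1.20 (-0.81) for MT-ND6, -1.17 (-0.74) for MT-ND4, -1.04 (-0.65) for MT-ND4L, -1.03 (-0.64) for MT-CYB, -1.02 (-0.63) for MT-ND1, -0.96 (-0.58) for MT-CO1 and -0.70 (-0.43) for MT-RNR2. Among nuclear rises it was -0.59 (-0.39) for VIM, -0.54 (-0.40) for NPIPA3 and -0.54 (-0.32) for PCBP2.

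Among the falls it was 0.88 (0.62) for TSTD2, 0.87 (0.69) for IGF2BP3, 0.86 (0.48) for CYP51A1, 0.80 (0.58) for TBC1D14, 0.80 (0.52) for CSNK1A1, 0.66 (0.50) for SHPRH, 0.64 (0.40) for RAB11FIP1, 0.64 (0.44) for KIF2A, 0.60 (0.44) for SEC24C, 0.53 (0.31) for CNOT1, 0.44 (0.24) for CCDC85C and 0.43 (0.22) for USP34. Without both libraries 19 of the 23 still passed, and without replicate 1 of the 1 µM group alone 5 did, CSNK1A1, TBC1D14, IGF2BP3, SEC24C and TSTD2. The genes were chosen for the size of their change in DMSO, which favours a smaller change in any other condition.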

How the results depend on the processing

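The counts of 3101 genes higher and 3914 lower stayed within 1.5 times of themselves under every alternative run except plain CPM, which gave 1979 higher (5338 lower, within that range). Counts of at least 2-fold (14 higher and 64 lower, 78 in all) rose to 72 and 182 (254) with a pseudocount of 0.1, to 91 and 203 (294) with edgeR and TMM factors, to 104 and 181 (285) with relative log expression factors, and to 136 lower and 9 higher (145) in plain CPM, an alternative chosen after seeing the data, as was leaving out the libraries that stand apart. Lists with more members higher than lower numbered 16 as deposited, 30 after median centring and 5 in plain CPM, and those with more lower 24 as deposited and 11 after median centring.

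The 1565 genes whose change differed between Helicon 4-neg at 1 µM and DMSO became 797 (556 higher, 241 lower) without both libraries that stand apart. With a single library left out the count ran from 472 (347 and 125, without Helicon 4-neg 1 µM 48 h replicate 1) to 2129 (1366 and 763, without replicate 3 of that group). It was 925 without DMSO 48 h replicate 3 and 923 without Helicon 4-neg 1 µM 24 h replicate 3, and the genes lower were 351 without DMSO 24 h replicate 2 and 347 without DMSO 48 h replicate 2.

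The replicate block gave 3095 higher and 3892 lower (6987 in all). Libraries with the same number at 24 and 48 h correlated at -0.259, 0.265 and -0.313 in their deviations from the group means, so the numbers were not taken to pair the samples.

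Of 206 named genes, 174 kept their direction and their side of the threshold under every alternative run, 27 lost the call under at least 1 of up to 19, and 8 changed sign. With the length trend removed MT1G was at -0.056, HIST2H2AA4 at -0.0066, HIST1H2BK at -0.15 and VEGFA at 0.050. CDKN1B was at -0.016 in plain CPM. The other 3 had not passed as reported. LGR5 (-0.08) was at 0.012 after median centring and 0.0095 with the length trend removed, and from -0.21 to 0.068 with a library left out. CDKN1A was at 0.037 after median centring and from -0.22 to 0.036 with a library left out. MKI67 was at 0.065 and 0.18 under the same scalings and from -0.13 to 0.042 with a library left out. The cause was not tested. At 48 h, 3 reads were worth 0.155 to 0.187, so lower levels are not resolved.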

Other observations

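Genes of zinc handling moved in different directions. SLC39A4, a zinc importer of the gut, rose by 0.67 (limma adjusted p = 5.4e-10), from 18.7, 19.9 and 19.6 to 26.6, 33.8 and 34.7, and MTF1, the zinc-sensing factor, fell by 0.47 (length-corrected -0.30). Of 9 metallothionein and zinc genes 4 were higher and 3 lower (median 0.13; -0.06 with the length trend removed with 1 higher and 1 lower, 0.23 after median centring and 0.03 in plain CPM with 3 higher and 4 lower).

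Genes of the sterol-sensing LXR receptors were lower in 3 and higher in 0 of 5 (median -0.38; -0.41 with the length trend removed, -0.29 after median centring and -0.47 in plain CPM). LPCAT3, which remodels phospholipids, fell by 0.69, from 18.8, 16.5 and 20.6 to 13.01, 10.1 and 10.4. The receptor gene NR1H3 and MYLIP fell by 0.38 and 0.33. In the NF-kappaB list 2 were higher and 2 lower of 19 (median 0.0012; -0.10 with the length trend removed, 0.10 after median centring with 2 higher and 1 lower and -0.11 in plain CPM with 2 higher and 5 lower), and its related subunits went opposite ways, NFKB1 falling by 0.57 and NFKB2 rising by 0.48. In the TGF-beta list 3 were higher and 3 lower of 18 (median -0.01; 0.12 with the length trend removed with 2 higher and 0 lower, 0.09 after median centring with 3 higher and 1 lower and -0.11 in plain CPM with 0 higher and 4 lower). In the list of glucose-sensing MondoA and ChREBP targets 1 was higher and 4 lower of 10 (median -0.03; -0.06 with the length trend removed, 0.07 after median centring and -0.16 in plain CPM).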
